A study of Homo sapiens with 19 samples.

Results

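The Toll-like receptor genes TLR1, TLR2, TLR4, TLR5, TLR6, TLR7, TLR8 and TLR9 and the gene of their shared adaptor, MYD88, are described here in MOLM-13 cells, an established human acute myeloid leukaemia line. These 9 genes were taken by name from the 20033 protein-coding genes of GENCODE release 44 (hg38), and all 9 were found. CUT&RUN, in which a nuclease tethered to an antibody cuts out the chromatin that carries a mark, had been run for the histone marks H3K27ac, H3K4me2 and H3K4me3. For each mark, 2 libraries came from Corin-treated cells and 2 from cells in DMSO, the vehicle, after 24 h at a labelled concentration of 0.1 µM. The labels give that concentration for the DMSO libraries too, where its meaning is unclear. Of 19 libraries, the peak lists of these 12 were used, and the other 7 (ATRA with Corin, LSD1 and IgG) were not analysed here.

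Toll-like receptors recognise products of microbes. TLR1 and TLR6 each pair with TLR2 to bind bacterial lipopeptides, TLR4 responds to lipopolysaccharide and TLR5 to flagellin, all at the cell surface, while TLR7, TLR8 and TLR9 read nucleic acids inside endosomes. Each of these receptors can pass its signal through MYD88 to the IRAK kinases and NF-kappaB, and monocytes and macrophages are known for carrying many of them. H3K4me3 lies mainly at active gene starts, H3K27ac at active starts and enhancers, and H3K4me2 at both, including starts that are accessible but weakly used. Corin inhibits LSD1, which removes H3K4me2, and the histone deacetylases of the same CoREST complex. The comparison asked where these marks lay after both activities were blocked.

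Before treatment the listed genes fell into 3 states. MYD88 and TLR2 carried both H3K4me2 and H3K4me3 within 1 kb of their starts, TLR1, TLR4, TLR5, TLR6 and TLR9 carried H3K4me2 without H3K4me3, and TLR7 and TLR8 carried neither, in both DMSO lists of each mark. H3K4me2 without H3K4me3 was thus found at 5 of the 7 listed genes with H3K4me2 at the start, or 4 of 6 distinct starts, since TLR1 and TLR6 share theirs. Over all protein-coding genes it was found at 1851 of 11346 (16.3%). After Corin 0 of these 5 genes carried H3K4me3 at the start in both lists, beside 72 of the 1851 (3.89%), and TLR7 had H3K4me2 there in both lists. H3K27ac lay at the start in both lists at TLR1 and TLR6 in DMSO and at TLR1, TLR6, TLR9 and MYD88 after Corin, while over all genes the share went from 25% to 35.8%. TLR9 and MYD88 already had H3K27ac within 1 kb of the start in DMSO replicate 2. The MYD88 peak there lay over the start of the neighbouring gene ACAA1 and reached only to 956 bp before the MYD88 start. With the lists cut to a matched number of top-scoring peaks, H3K27ac lay there in both lists at TLR1 and TLR6 in DMSO and at TLR9 alone after Corin (24% and 25.2% of all genes), and H3K4me2 at TLR7 in neither treatment. The lists were longer after Corin, with 30029 to 34424 peaks against 17599 to 19995 for H3K27ac, 40042 to 41152 against 30896 to 32299 for H3K4me2, and 11757 to 11883 against 11104 to 11343 for H3K4me3. More coverage at any gene therefore came with more peaks genome-wide, and values at a matched number of top-scoring peaks are given where they end a call.

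The promoters of the genes that carried H3K4me2 before treatment are shown because they differ in CpG content, the sequence property usually tied to H3K4me3. Each line is the 250 bases before the RefSeq start (GRCh38.p14, 5′ to 3′ on the gene's strand), with CpG dinucleotides in capitals. The RefSeq table matched 7 of the 9 listed genes, TLR1 and TLR7 being the others. The positions are chr4:153684030-153684279 for TLR2 (plus strand), chr3:38138411-38138660 for MYD88 (plus), chr1:223143249-223143498 for TLR5 (minus), chr9:117704153-117704402 for TLR4 (plus), chr4:38856818-38857067 for TLR6 (minus) and chr3:52225646-52225895 for TLR9 (minus).
TLR2 promoter: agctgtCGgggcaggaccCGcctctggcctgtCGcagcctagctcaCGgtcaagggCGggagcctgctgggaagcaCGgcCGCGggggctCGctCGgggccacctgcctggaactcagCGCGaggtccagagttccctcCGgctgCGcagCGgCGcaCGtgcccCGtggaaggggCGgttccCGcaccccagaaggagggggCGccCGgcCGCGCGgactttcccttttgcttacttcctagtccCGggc
MYD88 promoter: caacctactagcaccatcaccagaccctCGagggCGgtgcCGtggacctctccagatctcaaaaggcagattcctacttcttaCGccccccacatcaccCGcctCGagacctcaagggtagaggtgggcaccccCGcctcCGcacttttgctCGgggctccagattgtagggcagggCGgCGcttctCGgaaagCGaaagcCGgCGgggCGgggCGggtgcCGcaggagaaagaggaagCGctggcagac
TLR5 promoter: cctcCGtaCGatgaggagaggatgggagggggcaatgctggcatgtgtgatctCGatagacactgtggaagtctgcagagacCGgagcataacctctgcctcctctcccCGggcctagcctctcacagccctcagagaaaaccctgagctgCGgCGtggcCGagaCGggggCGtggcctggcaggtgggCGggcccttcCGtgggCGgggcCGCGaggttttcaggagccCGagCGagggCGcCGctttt
TLR4 promoter: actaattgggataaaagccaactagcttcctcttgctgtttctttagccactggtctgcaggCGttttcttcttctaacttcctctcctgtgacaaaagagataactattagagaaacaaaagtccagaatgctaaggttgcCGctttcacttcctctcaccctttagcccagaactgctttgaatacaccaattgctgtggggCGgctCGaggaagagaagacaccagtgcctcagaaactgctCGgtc
TLR6 promoter: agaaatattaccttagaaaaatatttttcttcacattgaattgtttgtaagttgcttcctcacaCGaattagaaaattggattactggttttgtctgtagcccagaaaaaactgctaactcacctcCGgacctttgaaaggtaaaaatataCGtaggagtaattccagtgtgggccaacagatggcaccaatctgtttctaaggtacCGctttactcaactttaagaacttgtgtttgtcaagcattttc
TLR9 promoter: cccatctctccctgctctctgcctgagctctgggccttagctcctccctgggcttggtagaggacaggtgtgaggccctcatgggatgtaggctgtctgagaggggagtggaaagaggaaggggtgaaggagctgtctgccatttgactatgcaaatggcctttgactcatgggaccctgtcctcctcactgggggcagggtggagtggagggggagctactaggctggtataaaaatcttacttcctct

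TLR2, with H3K4me3, held 26 CpGs in this stretch, and MYD88, also with H3K4me3, held 19. TLR5, which had H3K4me2 but no H3K4me3, held 19 as well, so the count did not part the listed genes by their marks. The other starts with H3K4me2 alone were CpG-poor, with 5 at TLR4, 4 at TLR6 and 0 at TLR9. TLR8, with neither mark, held 4. Over all matched promoters the median was 22 (n = 7335) where both marks lay in DMSO, 19 (n = 1379) where H3K4me2 lay alone, and 6 (n = 5813) where neither did. Of the promoters with both marks, 3.38% held fewer CpGs than TLR4 and 2.44% fewer than TLR6, and of those with H3K4me2 alone the shares were 15.7% and 11.3%.

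**Figure D1:**
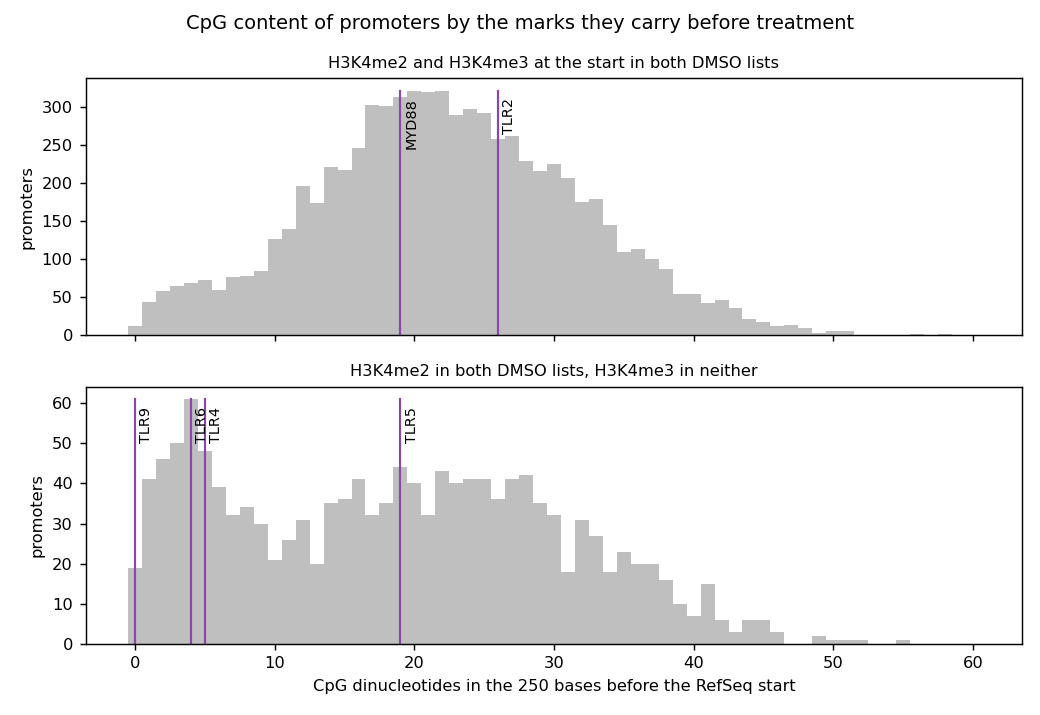
CpG dinucleotides in the 250 bases before the RefSeq start (horizontal axis) of promoters with H3K4me2 and H3K4me3 in both DMSO lists (top) and with H3K4me2 in both and H3K4me3 in neither (bottom); bars count promoters and lines mark the listed genes. TLR2 (26) and MYD88 (19) lie near the middle of the upper distribution, while TLR9 (0), TLR6 (4) and TLR4 (5) lie at the low end of the lower one and TLR5 (19) in its middle.

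The motif GAGGAA, the core bound by PU.1 and related ETS factors, was found on either strand in the 250 bases of TLR4, TLR6, TLR9 and MYD88, which is 4 of 7 listed promoters against 23.5% of 15345 RefSeq promoters. TLR4 held 4 copies, TLR9 held 2, and TLR6 and MYD88 held 1 each. The AP-1 motif TGANTCA was found at TLR9 (5.02% of all promoters), the interferon-response motif (GAAA, any 2 bases, GAAA) at MYD88 (2.72%), the C/EBP motif TTGCNNAA at TLR8 (7.25%) and the kappaB motif (GGGA, any 4 bases, CC) at TLR2 (25.9%). The GC box GGGCGG was found at TLR2, TLR4, TLR5 and MYD88, against 56.7% of all promoters. All motifs were searched on both strands, and a match is a run of letters, not a shown binding site.

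**Figure D2:**
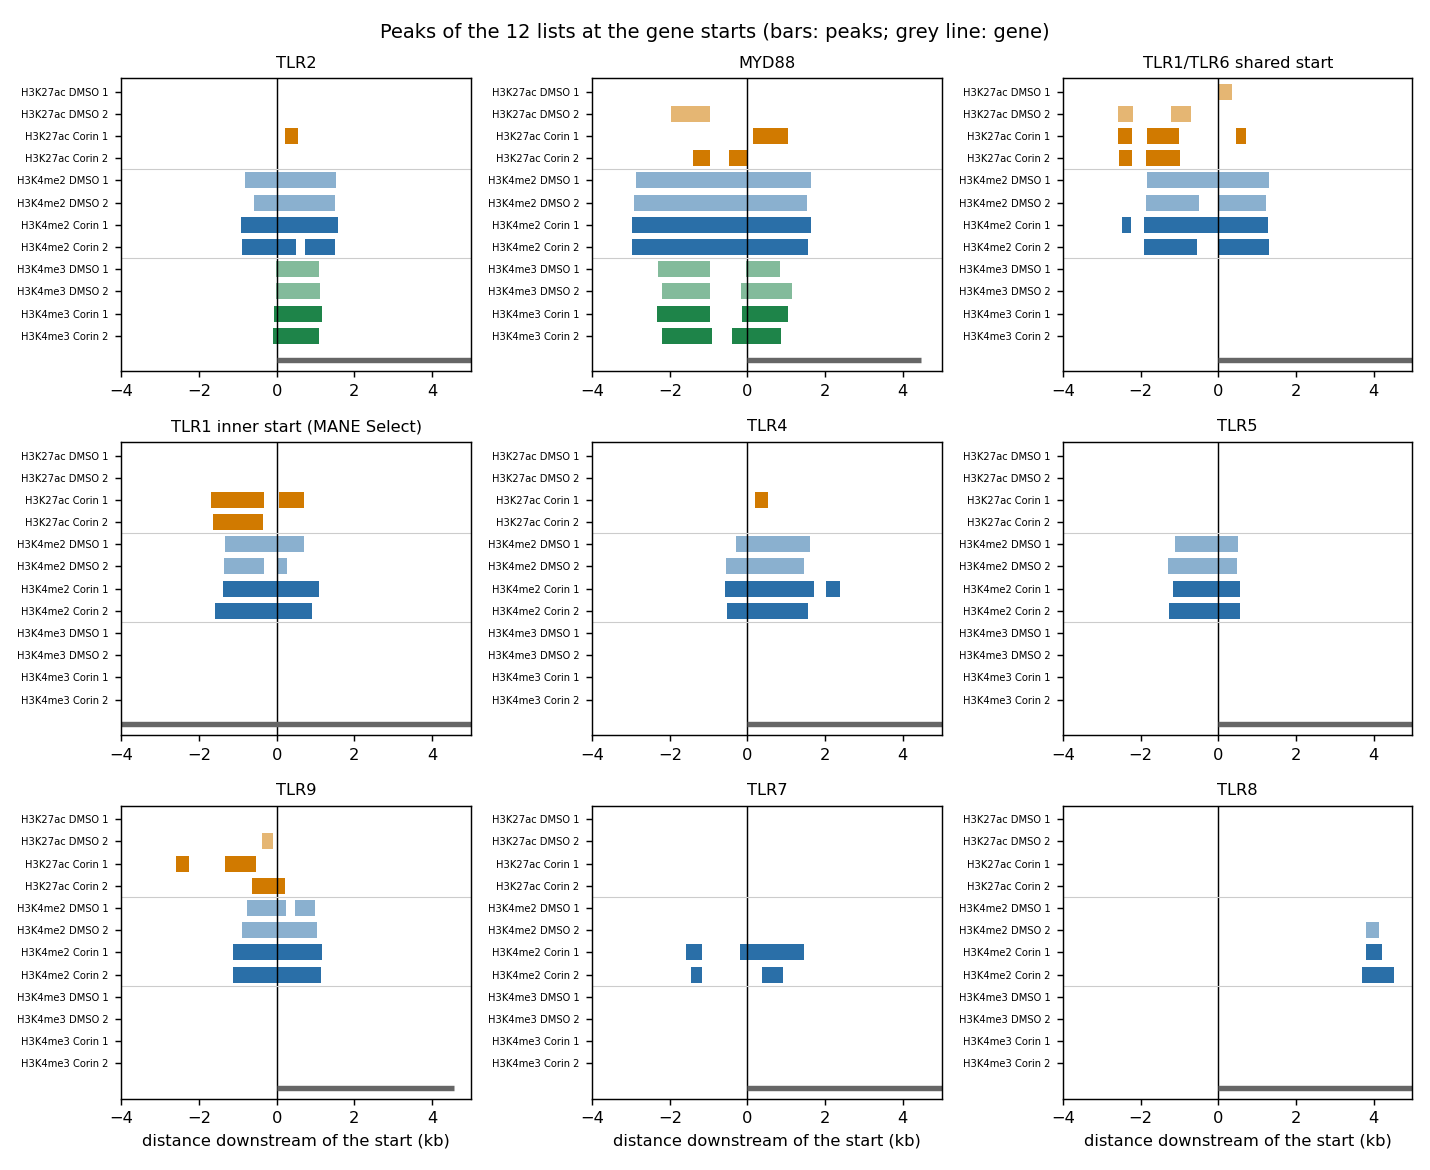
Peaks of each of the 12 lists around each start, in kb downstream of it, with 1 row per library (H3K27ac orange, H3K4me2 blue, H3K4me3 green, DMSO pale, Corin full colour) and the gene as a grey line. TLR2 and MYD88 have green bars in all 4 H3K4me3 lists and no other start has any, and at TLR7 blue bars lie in the 2 Corin lists and in neither DMSO list.

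The amount of each mark was measured as the base pairs under peaks within 10 kb either side of the gene's outermost annotated start. A gene was called higher when both Corin libraries lay above both DMSO libraries. An exact two-sided permutation test of 2 libraries against 2 cannot give a p below 0.333, so no gene could pass 0.05 alone, and each non-overlapping gene has that p. For H3K27ac, 3 of the 9 genes were higher (TLR1, TLR6 and TLR9) and 0 lower, of 6 with any peak. In the background, 54.6% of 10532 genes with a peak were higher and 0.655% lower. For H3K4me2, 6 of 9 were higher (TLR4, TLR5, TLR7, TLR8, TLR9 and MYD88) and 0 lower, with 39.5% of 14079 genes higher and 3.83% lower in the background. For H3K4me3, 1 of 9 (TLR2) was higher and 0 lower, of 2 with any peak, with 25.7% of 11193 genes higher and 8.28% lower. TLR1 and TLR6 share their outermost start and so count as 1 window. With that window counted once, the median difference over the listed windows with peaks was 420 bp for H3K27ac (5 windows), 471.5 bp for H3K4me2 (8 windows) and 119 bp for H3K4me3 (2 windows), beside 445, 233.5 and 63.5 bp over all genes with peaks. Counted by gene it was 567 bp for H3K27ac and 402.5 bp for H3K4me2, so the order against all genes in H3K27ac depended on that count. At a matched number of peaks, 1 gene of 4 with peaks was higher for H3K27ac (background 35.3% higher, 3.51% lower). For H3K4me2 it was 4 of 9 (31.3% and 7.57%) and for H3K4me3 1 of 2 (24.3% and 9.18%), and 0 were lower.

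**Figure D3:**
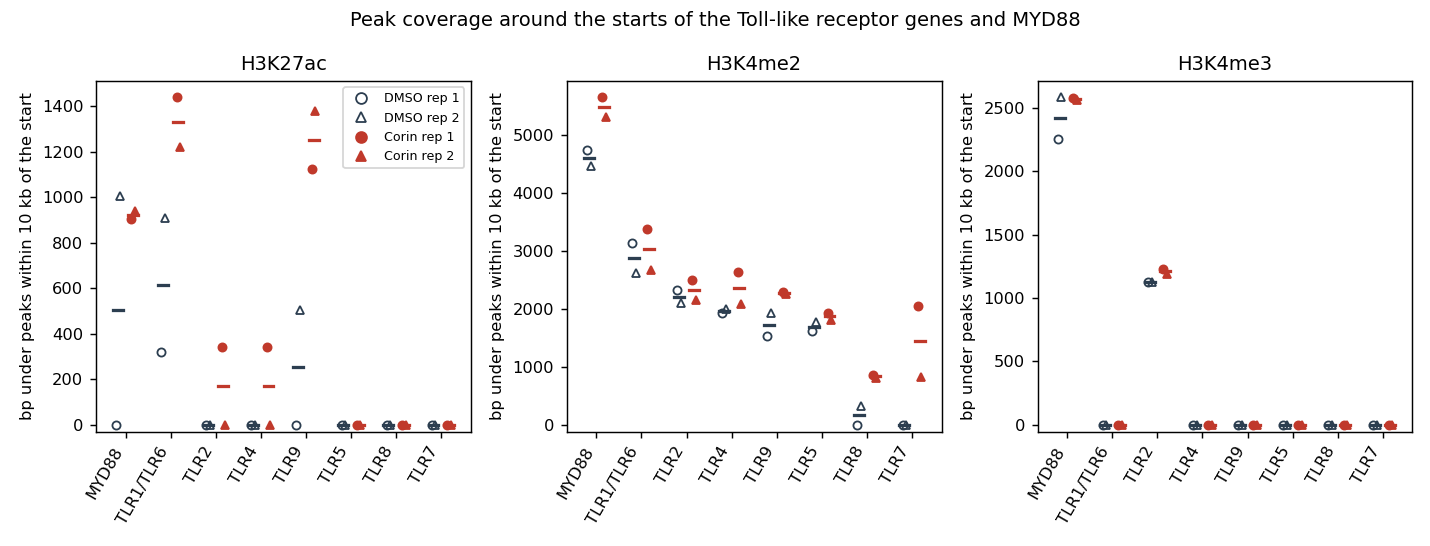
Base pairs under peaks within 10 kb of the start (vertical axis) for each gene and mark, with 1 symbol per library (circles replicate 1, triangles replicate 2, open DMSO, filled Corin) and a bar at each group mean. The H3K4me2 symbols of TLR7 are at 0 in both DMSO libraries and at 2055 and 822 in the Corin libraries, and H3K4me3 is above 0 at MYD88 and TLR2 alone.

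**Figure D4:**
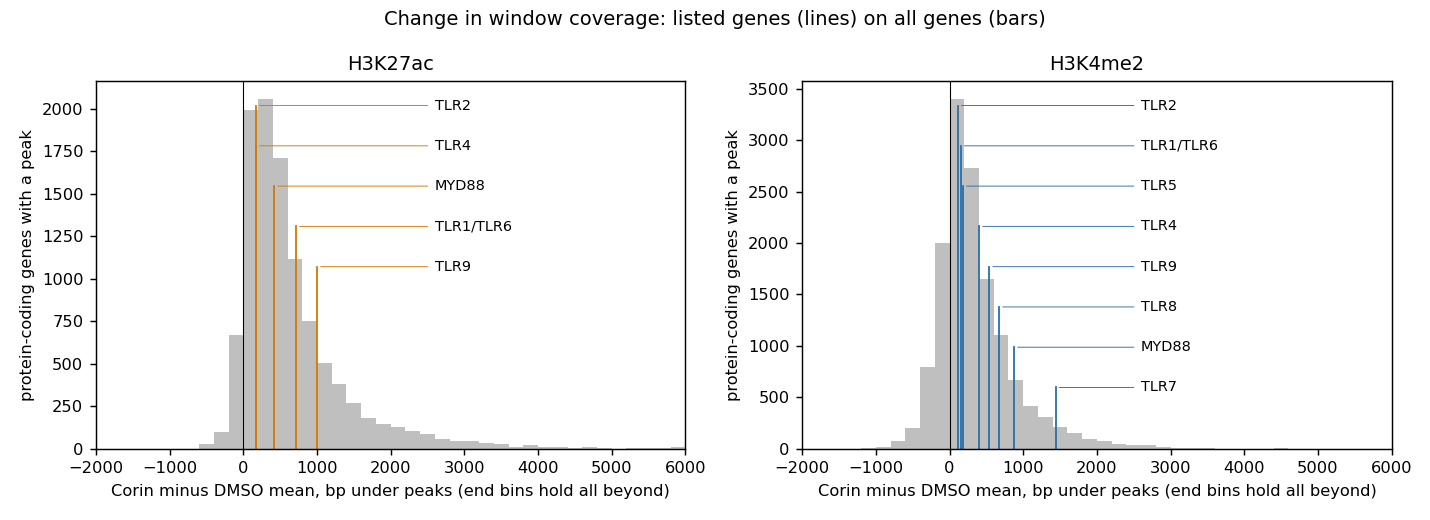
Difference of group means, Corin minus DMSO, in bp under peaks within 10 kb of the start (horizontal axis, end bins holding all values beyond), for all protein-coding genes with a peak (grey bars, counts) and for the listed genes (lines) in H3K27ac (left) and H3K4me2 (right). All lines lie to the right of 0, as do most genes, and TLR7 at 1438.5 bp is the farthest of the listed genes for H3K4me2.

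Among the surface receptors, TLR2, the partner of TLR1 and TLR6, was the receptor with a start that carried H3K4me3. TLR2 lies at chr4:153684070-153706260 on the plus strand. H3K4me3 covered 1230 and 1192 bp in the Corin libraries and 1124 and 1124 bp in the DMSO libraries, in 1 peak that reached from 94 bp before to 1167 bp after the start over the first exon and its 5′ UTR. The groups did not overlap, and the difference was 87 ± 26.9 bp (SD, n = 2 per group). H3K4me2 covered 2502 and 2147 bp after Corin and 2324 and 2100 bp in DMSO, so the groups overlapped, with a difference of 112.5 ± 297 bp. H3K27ac was found at the start of TLR2 in 1 list, Corin replicate 1, where it covered 343 bp.

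TLR1 and TLR6 lie head to tail on the minus strand of chromosome 4 and share the start at position 38856817, TLR6 ending at 38822897 and TLR1 at 38790677. At this shared start H3K4me2 covered 3389 and 2667 bp after Corin and 3132 and 2616 bp in DMSO. These groups overlapped, and the main peak reached from 1903 bp before to 1303 bp after the start in the union of the 4 lists. H3K27ac covered 1440 and 1220 bp after Corin and 322 and 910 bp in DMSO. The Corin libraries were both higher, by 714 ± 444 bp (SD of the difference, n = 2 per group), 2.16 times the DMSO mean, and by 420 bp without DMSO replicate 1. Most of this lay upstream, 708 to 1868 bp before the start, where the lists held 818 and 878 bp after Corin and 0 and 508 bp in DMSO. At a matched number of peaks the H3K27ac values were 818 and 1220 bp against 322 and 910 bp, and the groups overlapped.

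TLR1 has a further start inside the gene, that of its MANE Select transcript, 52026 bp downstream of the shared start at chr4:38804791. Around it H3K27ac covered 2015 and 1289 bp in the Corin libraries and 0 and 0 bp in the DMSO libraries. H3K4me2 there covered 2476 and 2491 bp after Corin and 2052 and 1239 bp in DMSO, in all 4 lists. The inner start thus carried H3K4me2 before treatment and H3K27ac peaks after Corin alone, while the shared start had H3K27ac within 1 kb in both DMSO lists, though at different places, 29 to 350 bp after it in replicate 1 and upstream of it in replicate 2, and in neither list over the start itself. In Corin replicate 1 the H3K27ac included a separate peak of 640 bp, 57 to 696 bp after the inner start, found in no other list. The other H3K27ac peaks formed the only region near the listed genes that was gained in that mark, present in both Corin lists and neither DMSO list (1 of 21 regions, against 11.5% of 41573 in all). The region, chr4:38805110-38806484, lay 319 to 1693 bp upstream of the inner start within the TLR1 gene, over 5′ UTR exons of other TLR1 transcripts and the introns between them. Its peaks were 1375 and 1289 bp wide with scores of 171 and 260, above 75.3% and 90.3% of the peaks in their lists. It was still called gained at a matched number of peaks.

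The middle of the exon-free part that both Corin peaks share is shown as the stretch of TLR1 that acquired H3K27ac (hg38, chr4:38805861-38806160, minus strand, 5′ to 3′), with GAGGAA in capitals, which 29.6% of H3K27ac regions hold in their central 300 bases.
TLR1 region: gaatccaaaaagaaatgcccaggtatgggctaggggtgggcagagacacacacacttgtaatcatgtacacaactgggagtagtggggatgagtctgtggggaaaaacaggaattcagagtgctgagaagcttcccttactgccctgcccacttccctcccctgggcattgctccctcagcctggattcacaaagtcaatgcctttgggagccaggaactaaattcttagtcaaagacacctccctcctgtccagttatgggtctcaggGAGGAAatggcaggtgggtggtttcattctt

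TLR4, the lipopolysaccharide receptor, lies at chr9:117704175-117724735 on the plus strand, 18 bp from the start of the protein-coding gene ENSG00000285082, which overlaps it, so peaks cannot be assigned to either. Around its start H3K4me2 covered 2640 and 2089 bp after Corin and 1925 and 1999 bp in DMSO. Both Corin libraries were higher, by 402.5 ± 393 bp, a difference of 127 bp without Corin replicate 1, 678 bp without Corin replicate 2 and 222 bp at a matched number of peaks. H3K4me3 had no peak in any of the 4 lists, and H3K27ac had a peak of 344 bp in Corin replicate 1 alone. The H3K27ac of TLR4 lay instead over the 3′ UTR, far from the start. A region from 14378 to 15040 bp after the start held 572 and 557 bp after Corin and 515 and 284 bp in DMSO, in all 4 lists, and a second, 19825 bp after the start, held 285 and 606 bp against 0 and 328 bp. H3K4me2 lay over the first place in all 4 lists, with 1090 and 891 bp against 687 and 792 bp. It also touched the second in all 4 lists, with 1782 and 1875 bp against 1112 and 885 bp. These values are of a wider merged region, 19559 to 21924 bp after the start, which ran past the gene end with 1002 bp inside TLR4. The DMSO replicate 1 peak, chr9:117724495-117725606, lay mostly past the gene end. Over the gene body H3K27ac covered 2097 and 1163 bp after Corin and 515 and 886 bp in DMSO, and H3K4me2 4309 and 3358 bp against 2548 and 2941 bp. In both marks the Corin libraries lay above the DMSO libraries, with differences of 929.5 ± 711 bp and 1089 ± 728 bp.

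A smaller feature of this kind lay at TLR2. H3K4me2 covered 473 and 361 bp after Corin and 383 and 358 bp in DMSO over its 3′ UTR, 21789 to 22262 bp after the start, and H3K27ac 548 and 214 bp against 276 and 0 bp there. The groups overlapped in both marks.

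**Figure D5:**
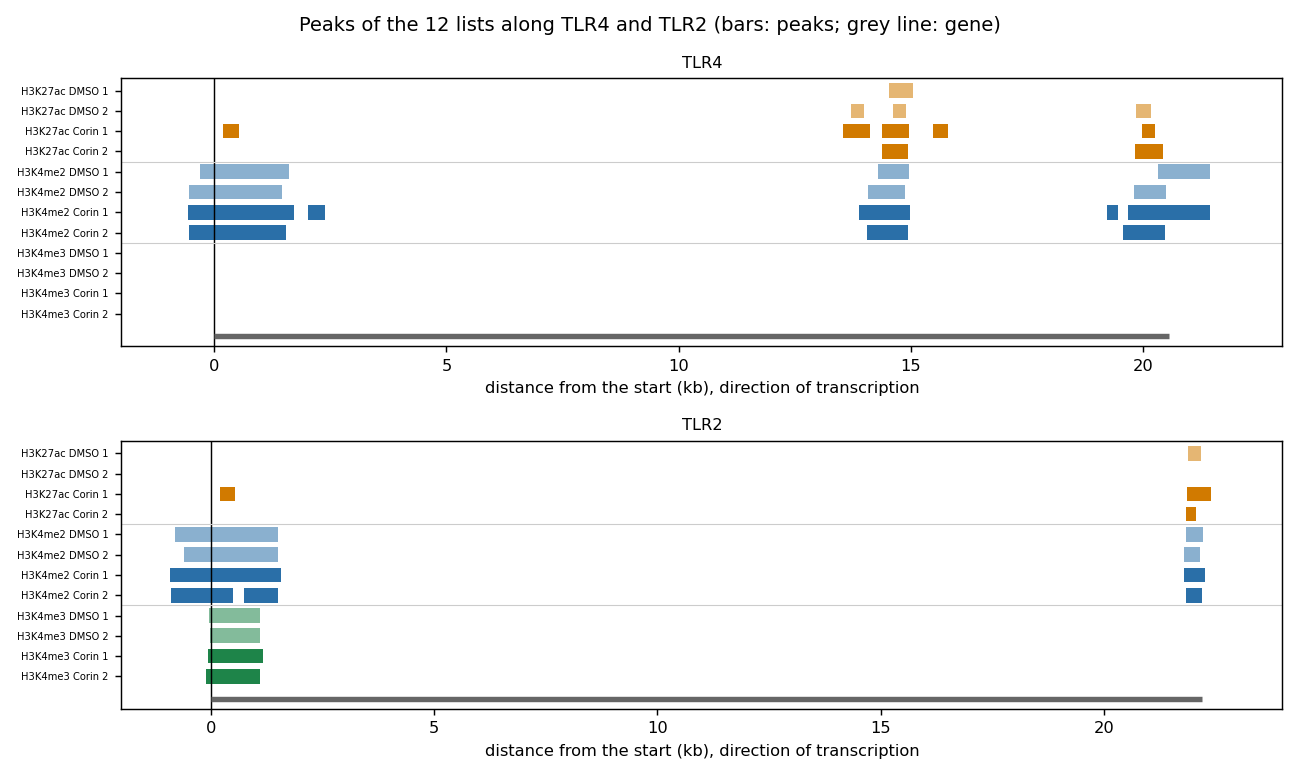
Peaks of the 12 lists along TLR4 (top) and TLR2 (bottom), in kb downstream of the start, with 1 row per library and the gene as a grey line (H3K27ac orange, H3K4me2 blue, H3K4me3 green, DMSO pale). At TLR4 both H3K27ac and H3K4me2 lie 14 to 15 kb after the start in all 4 lists, while at the start H3K4me2 lies in all 4 and H3K27ac in 1.

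TLR5, the flagellin receptor, lies at chr1:223109404-223143248 on the minus strand. It carried H3K4me2 alone: 1938 and 1816 bp after Corin and 1618 and 1771 bp in DMSO, with no H3K27ac or H3K4me3 peak in the window or the gene body in any list. Both Corin libraries were higher, by 182.5 ± 138 bp, but this rested on a 203-bp peak with a score of 84 in Corin replicate 1, 9032 to 9234 bp after the start. Within 5 kb of the start, with scores of at least 100 or at a matched number of peaks, the values were 1735 and 1816 bp against 1618 and 1771 bp, the groups overlapped and the difference was 81 bp, and it was 121.5 bp without Corin replicate 1 and 106 bp without DMSO replicate 1 in the full window. An unnamed lncRNA, ENSG00000236846, starts 801 bp from TLR5.

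The endosomal receptors differed among themselves. TLR9, which responds to unmethylated CpG DNA, lies at chr3:52221080-52225645 on the minus strand and was the receptor that was higher in both H3K27ac and H3K4me2 around its outermost start. H3K27ac covered 1124 and 1382 bp after Corin and 0 and 504 bp in DMSO, and H3K4me2 2291 and 2253 bp against 1528 and 1935 bp. Neither pair of groups overlapped, and the differences were 1001 ± 400 bp and 540.5 ± 289 bp, the latter 337 bp without DMSO replicate 1. Both calls held at a matched number of peaks, with 781 and 857 bp against 0 and 504 bp for H3K27ac (a difference of 567 bp) and the same H3K4me2 values. The H3K27ac at the start, in a merged region 1318 bp before to 225 bp after it, covered 781 and 857 bp after Corin and 0 and 287 bp in DMSO. The peak of Corin replicate 1 (chr3:52226183-52226963) met that of replicate 2 (chr3:52225420-52226276) only at its edge. The DMSO replicate 2 peak (chr3:52225746-52226032) lay within the latter and did not touch the former. These 3 peaks scored above 48.8%, 59.5% and 86.6% of the peaks in their lists. The gene ENSG00000173366 overlaps this place and starts 5545 bp from TLR9. No H3K4me3 peak lay in the TLR9 window in any list.

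TLR7 and TLR8, both receptors for single-stranded RNA, lie one after the other on the plus strand of the X chromosome, at chrX:12867072-12890361 and chrX:12906620-12923169. Their starts are 39548 bp apart, so their 10-kb windows do not overlap. TLR7 had H3K4me2 of 2055 and 822 bp in the Corin libraries and 0 and 0 bp in the DMSO libraries, so that the difference of 1438.5 bp was 822 bp without Corin replicate 1, and no peak of the other marks. Both regions called gained in H3K4me2 near the listed genes were at TLR7 (2 of 21, against 9.64% of 42421 in all). The upstream region, 1578 to 1176 bp before the start, had peaks of 403 and 277 bp, and the region over the start, 190 bp before to 1461 bp after it, had peaks of 1652 and 545 bp. Only the peak of Corin replicate 1 covered the start itself, and that of replicate 2 lay 373 to 917 bp after it. Their scores were low within their lists. They were 176 and 97 in the upstream region and 133 and 91 in the other, above 37.7%, 14%, 25.8% and 11.7% of the peaks of the lists. At a matched number of peaks Corin replicate 2 had none of them, the values were 2055 and 0 bp against 0 and 0 bp, and TLR7 was no longer called. A gain of H3K4me2 within 1 kb of the start, as at TLR7, was found at 96 of 8066 protein-coding genes without it in DMSO (1.19%).

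The part of the upstream region that both Corin libraries covered is shown as the TLR7 sequence that carried H3K4me2 after Corin alone (hg38, chrX:12865613-12865889, plus strand, 5′ to 3′, all 277 bases). It held no GAGGAA on either strand, so nothing is in capitals. Of H3K4me2 regions, 29.5% held the motif in their central 277 bases.
TLR7 upstream region: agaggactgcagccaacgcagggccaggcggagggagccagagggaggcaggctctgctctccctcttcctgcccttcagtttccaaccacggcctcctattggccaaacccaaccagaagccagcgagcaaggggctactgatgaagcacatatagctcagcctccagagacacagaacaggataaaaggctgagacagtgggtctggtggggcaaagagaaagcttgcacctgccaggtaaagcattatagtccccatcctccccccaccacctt

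TLR8 had no peak of any mark within 1 kb of its start. Its H3K4me2 covered 864 and 814 bp after Corin and 0 and 332 bp in DMSO, a difference of 673 ± 237 bp with no overlap of the groups. In the group means most of it lay inside the gene, 3704 to 4517 bp after the start, over an exon that holds 5′ UTR and coding bases and the intron beside it, where the lists held 414 and 814 bp in Corin against 0 and 332 bp in DMSO. The other 450 bp of Corin replicate 1 were an intergenic peak with a score of 79, 9309 to 9758 bp before the start, found in no other list. The call held at a matched number of peaks, with 414 and 814 bp against 0 and 332 bp, a difference of 448 bp. The antisense lncRNA TLR8-AS1 starts 1713 bp from TLR8.

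MYD88, which links the receptors to the IRAK kinases, lies at chr3:38138552-38143024 on the plus strand and carried the widest H3K4me2 of the listed genes. ACAA1, a gene of peroxisomal fatty acid oxidation, starts 1310 bp away. In each of the 4 lists 1 H3K4me2 peak covered both starts, 4612 and 4518 bp wide in Corin against 4510 and 4472 bp in DMSO. H3K4me3 instead lay in separate peaks. That over the MYD88 start covered 1205 and 1275 bp after Corin and 891 and 1337 bp in DMSO, and that over the ACAA1 start 1372 and 1288 bp against 1362 and 1248 bp, so both overlapped between the groups.

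In the whole window H3K4me2 of MYD88 was 5654 and 5315 bp after Corin and 4743 and 4472 bp in DMSO, a difference of 877 ± 307 bp with no overlap. Of this difference, 74 bp came from the peak over the starts and 803 bp from an intergenic region about 9 kb downstream, 8933 to 10019 bp after the start, whose lists held 1042 and 797 bp after Corin and 252 and 0 bp in DMSO over their full width. Within 5 kb of the start the difference was 74 bp. H3K27ac at MYD88 was 907 and 939 bp after Corin and 0 and 1006 bp in DMSO, and the groups overlapped. At a matched number of peaks the values were 0 and 437 bp against 0 and 1006 bp, and the difference turned from 420 to -284.5 bp. These peaks coincided only in part. In Corin replicate 1 the peak lay within MYD88 from 136 bp after the start, and in Corin replicate 2 there were peaks at the MYD88 and the ACAA1 starts. In DMSO replicate 2 the peak lay over ACAA1 and contained the Corin replicate 2 peak there.

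Within the gene bodies, H3K27ac was higher in both Corin libraries at 3 of 9 genes, of 6 with any peak there. They were TLR1, TLR4 and MYD88 (background over genes with a peak 53.4% higher, 0.953% lower). H3K27ac within TLR1 covered 2603 and 1289 bp after Corin against 322 and 0 bp, while the call of MYD88 rested on 18 bp in Corin replicate 2, beside 907 bp in replicate 1 and 0 and 0 bp in DMSO. H3K4me2 was higher at 6 of 9 bodies (background 39.7% and 4.76%), TLR1, TLR4, TLR5, TLR7, TLR8 and TLR9. H3K4me3 was higher at 0 of 9, of 2 with any peak there (23.5% and 9.09%). None was lower in any mark. TLR1 held 4280 and 4229 bp of H3K4me2 in its body after Corin against 3356 and 2956 bp, a difference of 1098.5 bp, of which 838 bp lay in the region over the inner start. As a percent of the gene in DMSO, H3K4me2 covered 36.9% and 34.6% of MYD88, 16.8% and 22.7% of TLR9, 12.4% and 14.3% of TLR4, and 1.52% and 1.44% of TLR5. The 2 shortest genes, MYD88 and TLR9, had the highest of these shares.

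The order of the genes by H3K4me2 in DMSO was MYD88 (4607.5 ± 192 bp), the shared TLR1 and TLR6 window (2874 ± 365 bp), TLR2 (2212 ± 158 bp), TLR4 (1962 ± 52.3 bp), TLR9 (1731.5 ± 288 bp), TLR5 (1694.5 ± 108 bp), TLR8 (166 ± 235 bp) and TLR7 (0 bp in both). TLR4 and TLR9, TLR9 and TLR5, and TLR8 and TLR7 overlapped in their libraries, and the other neighbours in this order did not. MYD88 lay above 92.5% of all protein-coding genes, TLR5 above 56% and TLR8 above 33.1%. In Corin TLR4, TLR2 and TLR9 formed overlapping neighbours at 2364.5, 2324.5 and 2272 bp. The windows all have the same length, 20001 bp, so these are levels per equal length.

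The genes with the profile most like that of a listed gene were found by the mean absolute difference in bp over the 12 libraries, for listed genes with peaks in at least 6 of them. For the TLR1 and TLR6 window they were WDR49 (210 bp), BPI (225 bp), which encodes an antibacterial protein of granulocytes, and VIT (234 bp). For TLR9 they were DPEP2 (93.3 bp), LYVE1 (121 bp) and ALOX5AP (159.5 bp), the last a gene of leukotriene synthesis. P2RX5, with the readthrough gene that shares its start (84.3 bp), and MOK (91.9 bp) were nearest to TLR2, and DIPK2A (249 bp), MATCAP1 (265 bp) and BICRA (265 bp) to MYD88. DPEP2, LYVE1 and ALOX5AP had, like TLR9, no H3K4me3, and P2RX5 and MOK, like TLR2, had H3K4me3. The measure included the H3K4me3 lists, so this likeness was part of how the genes were chosen. The H3K27ac of P2RX5 and MOK was 0 bp in both group means, against 171.5 bp after Corin and 0 bp in DMSO at TLR2.

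The other genes of the pathway were taken from a list of 51. H3K27ac was higher in both Corin libraries at 29 of 41 with peaks and lower at 0, H3K4me2 higher at 31 of 48 and lower at 0, and H3K4me3 higher at 14 of 36 and lower at 3, beside the shares of 54.6%, 39.5% and 25.7% higher over all genes. With matched peak numbers the counts, in the same order of marks, were 16 higher and 1 lower, 29 and 0, and 12 and 6, beside 35.3%, 31.3% and 24.3% higher and 3.51%, 7.57% and 9.18% lower over all genes with peaks. The median difference was 735.5 bp for H3K27ac, 552.5 bp for H3K4me2 and 109.5 bp for H3K4me3. By role, the accessory proteins that help receptors bind ligand or reach the membrane were higher in H3K27ac at 7 of 7 with peaks and in H3K4me2 at 6 of 7. The genes that signalling induces were higher in H3K27ac at 6 of 6 and in H3K4me2 at 7 of 7. At a matched number the H3K27ac counts were 4 and 1, and the H3K4me2 counts 6 and 7. The kinases and ubiquitin ligases were higher at 9 of 13 in H3K27ac and 7 of 15 in H3K4me2, and the inhibitors at 4 of 6 and 3 of 7, and with matched peak numbers these counts were 5, 6, 4 and 2. The transcription factors were higher at 3 of 6 in H3K27ac (2 higher and 1 lower with matched numbers) and 5 of 6 in H3K4me2, and the adaptors at 0 of 2 and 3 of 4. TLR3 and TLR10, the human receptors outside the listed genes, were not called in any mark.

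The largest H3K27ac differences in this list were at TNF, the cytokine, with 8727 and 6885 bp after Corin against 2864 and 1938 bp, at IKBKB, a kinase of the NF-kappaB pathway, with 6043 and 4350 bp against 1376 and 1824 bp, and at IRAK1, a kinase recruited by MYD88, with 4249 and 4558 bp against 890 and 2120 bp. The Corin libraries were the higher at each. For H3K4me2 they were at IL1B, a cytokine, with 4297 and 3871 bp against 1260 and 1573 bp, at LY86, with 5887 and 6111 bp against 3610 and 3741 bp, and at CD180, with 7704 and 7050 bp against 5309 and 5110 bp. CD180 and LY86 encode a receptor and its partner that resemble TLR4 and its partner LY96.

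In H3K4me3 the roles, beside 25.7% higher over all genes, were higher at 1 of 13 kinases and ubiquitin ligases, 2 of 5 accessory proteins, 3 of 6 transcription factors, 4 of 7 inhibitors, 1 of 2 induced genes and 3 of 3 adaptors, which were TIRAP, TICAM1 and SARM1. With matched peak numbers LY86 and IRF5 were no longer called, so 1 accessory protein and 2 transcription factors were higher. The other counts of higher genes held. TIRAP, which bridges TLR2 and TLR4 to MYD88, had 842 and 692 bp after Corin and 0 and 0 bp in DMSO. TICAM1, the adaptor of TLR3, had 1468 and 1305 bp against 530 and 812 bp, and SARM1 had 1811 and 2009 bp against 1491 and 1591 bp. No H3K4me3 peak lay within 1 kb of the SARM1 start in any list, so its values came from elsewhere in the window. Among the induced genes, TNF had 5638 and 5393 bp against 4226 and 4489 bp. The genes lower in H3K4me3 were UBE2N (2471 and 2585 bp against 2632 and 2918 bp), MAP3K7 (1238 and 1228 bp against 1273 and 1651 bp) and IKBKE (1049 and 1082 bp against 1150 and 1155 bp). These 3 of 36 stand beside 8.28% lower over all genes, and at a matched number of peaks CD14, IRAK1 and PELI1 were lower as well. The H3K4me3 of the CD14 window lay more than 1 kb from its start in both DMSO lists. In DMSO, 10 of the 40 pathway genes with H3K4me2 at the start had no H3K4me3 there, which is 25% beside 16.3% of all genes. They were TLR3, CD14, CD180, TIRAP, TICAM2, IRF7, IL1B, CXCL8, CCL3 and IL12B. None was a kinase, a ubiquitin ligase or an inhibitor.

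The label of the cells was checked against H3K4me3 at the starts of marker genes in DMSO. It was found in both lists at 5 of 8 myeloid markers (SPI1, CEBPA, CD33, FLT3 and LYZ, not CSF1R, MPO or ITGAM), beside 46.4% of all protein-coding genes, and at 0 of 4 T cell, 0 of 4 B cell, 0 of 4 erythroid and 0 of 3 epithelial markers. CD8A, CD79A and PAX5 carried H3K4me2 without H3K4me3.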

How the data were processed

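CUT&RUN peak lists of 12 MOLM-13 libraries were used. The submitters' processing notes name Trim Galore, Bowtie2, Picard and MACS2 and the build hg38. Each list deposited by the authors gives peak position and a score of at least 50 per peak, without reads, so depth is unknown, and the definition of the score is not given in the sources used here. The score ranked or filtered peaks within a list only. No peak of 292523 ended past an hg38 chromosome end. Coordinates count from 1.

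Coverage was summed in windows of 10 kb either side of the outermost GENCODE 44 start with Python 3.11.15 and numpy 2.4.6, checked on simulated lists. A mark was at a start when a peak lay within 1 kb. Overlapping peaks of a mark's 4 lists were merged into regions, present in a list with any overlap. The percent called was taken over protein-coding genes with a peak. Alternatives were matched peak number, a score of at least 100, a 5-kb window, the gene body, the MANE Select start, whole peaks, 50% presence, a replicate block and leaving out each library. Listed genes were all named, and so were the 3 pathway genes with the largest differences per mark and direction. SARM1, and CD14, IRAK1, PELI1, LY86 and IRF5 for H3K4me3, were named after their values were seen. The members and lists were chosen with earlier results of these data known. The labels do not say whether replicates were separate cultures, so spreads may be technical.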

Additional observations from a re-analysis of the deposited data

How the results depend on the processing

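Of 187 alternative values of the 17 coverage differences, 12 changed sign. Of these, 2 were of genes called higher, both over the gene body: H3K27ac of TLR6 at -32 bp and H3K4me2 of MYD88 at -5.5 bp. The others were of genes whose groups overlapped and lay within 1 SD of the main value: MYD88 in H3K27ac (-284.5 bp at a matched number, -83 bp without DMSO replicate 1), TLR1 and TLR6 in H3K4me2 (-207 bp without Corin replicate 1, -104 bp without DMSO replicate 2), TLR2 in H3K4me2 (-68.5 bp over the gene body, -65 bp without Corin replicate 1) and MYD88 in H3K4me3 (-41.5 bp over the gene body, -15 bp without DMSO replicate 1). At a matched number of peaks 1 listed gene was higher in H3K27ac (3 in the main analysis), beside 35.3% of all genes with peaks. At that number 0 H3K4me2 regions were gained (2), beside 3.91% of all regions. With scores of at least 100, 4 genes were higher in H3K4me2, without TLR5 and TLR7, beside 38.1% of all genes with peaks. With these scores 3 H3K27ac regions (1) and 1 H3K4me2 region were gained, beside 14.7% and 9.53% of all regions. With presence over 50% of a region 3 and 4 were gained, beside 15.1% and 13.7%. Over the gene body 0 genes were higher in H3K4me3 (1), beside 23.5% of all genes with peaks. Leaving out 1 library each gave 3 to 5 genes higher (63.4% to 81.1% of all genes with peaks) and 0 to 1 lower (1.93% to 7.2%) in H3K27ac. In H3K4me2 it gave 6 to 9 higher (47.1% to 66.6%), with 6 in the main analysis and 9 without Corin replicate 2 or DMSO replicate 1. In H3K4me3 it gave 1 to 2 higher (36.9% to 49.8%) and 0 to 1 lower (18.2% to 26.6%). It gave 2 to 9 gained (16% to 36.9% of all regions) and 0 to 1 lost (0.433% to 3.51%) H3K27ac regions, and 2 to 8 gained H3K4me2 regions (12.6% to 21.3%). The 5 higher genes and the 9 and 8 gained regions came without Corin replicate 2, and MYD88 was the gene lower in H3K27ac and in H3K4me3 without DMSO replicate 1. H3K27ac at the start in both DMSO lists, found at 2 genes, was found at 0 with scores of at least 100, at 1 with MANE Select starts, at 0 for peaks over the start itself, and at 2 to 4 with 1 DMSO library left out, alternatives chosen after seeing the data. After Corin it was found at 4 genes, and at 1 with a matched number of peaks, also chosen after seeing the data. The causes were not tested. With a replicate block, in which a gene counts as higher when the Corin library is above the same-numbered DMSO library in both numbers, 3, 9 and 1 genes were higher in H3K27ac, H3K4me2 and H3K4me3 (65.9%, 49.9% and 37.2% of all genes). Deviations of same-numbered libraries correlated at 0.286, 0.310 and 0.228, but nothing in the labels tells which material same-numbered libraries have in common. Depth is unknown, so an absent peak is not an absent mark.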
